A study of Mus musculus with 12 samples.

Results

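The cytosolic heat shock response genes described here were the transcription factor gene Hsf1 and 9 genes for chaperones and cochaperones of the cytosol, namely Hspa1a, Hspa1b, Hspa8, Dnajb1, Dnaja1, Hsph1, Bag3, Hsp90aa1 and Hspb1. They were chosen by name, and each of the 10 symbols matched 1 row of a table of 53707 genes. All 10 passed the filter on low counts, which kept 21061 genes for testing. RNA came from explanted retinas of wild-type C57BL/6J mice at 28 days of age, which were freed of cornea, iris, sclera and retinal pigment epithelium and cultured for 48 hours. The low-glucose group received Neurobasal-A medium with 5 mM glucose and the high-glucose group the same medium at 25 mM. Both media held B27, N2 and Glutamax supplements and penicillin/streptomycin, and the protocol of both groups ends with 1 hour in Krebs' Ringers medium, which it does not clearly state for the retinas used for RNA. Each group held 3 biological replicates with 2 technical replicates each, 12 libraries in all, and the labels place technical replicate 1 in batch 1 and technical replicate 2 in batch 2. An explant is a whole tissue cut off from its blood supply, so every value is a sum over many cell types, and retinas that had not been cultured were not analysed here. How many retinas or mice went into a biological replicate, and what a technical replicate was, is not given in the sources used here.

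The cytosolic heat shock response is the way in which cells raise chaperone levels when unfolded protein accumulates. Its regulator, HSF1, is held inactive by chaperones, forms trimers when these are engaged elsewhere, and then binds heat shock elements, which are arrays of GAA units in alternating orientation upstream of its target genes. HSP70 chaperones bind exposed hydrophobic stretches of unfolded proteins in a cycle driven by ATP, J-domain proteins deliver substrates and start ATP hydrolysis, and nucleotide exchange factors such as HSP110 and BAG proteins reset the cycle. HSP90 acts on more folded clients such as kinases and steroid receptors, and small heat shock proteins hold unfolded proteins in solution without ATP. In the retina, photoreceptors make large amounts of protein for their outer segments, and HSP90 folds the rod phosphodiesterase there with the help of the cochaperone AIPL1.

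The upstream sequences are shown for the 3 members whose matches to a paired GAA unit lie outside the annotated transcripts of their own gene. They were also picked because they varied most between libraries in the values given later. A link between the matches and this spread was not tested. The 250 bases before the start site were available for 7 members in the RefSeq annotation of GRCm38.p6, in 11 windows, since a gene can have several starts. The letters searched were GAANNTTC and TTCNNGAA, the 2 ways in which neighbouring GAA units can face each other. Each of these reads the same on both strands, and the 2 can overlap. The stretches below run 5′ to 3′ on the strand of the gene, with matches to GAANNTTC in capitals and 30 bases on either side.
Hspa1a, chr17:34972223-34972290, minus strand: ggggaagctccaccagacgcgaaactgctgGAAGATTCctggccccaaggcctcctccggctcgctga
Hspa1b, chr17:34959305-34959372, minus strand: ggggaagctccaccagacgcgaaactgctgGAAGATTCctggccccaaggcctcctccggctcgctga
Hspb1, chr5:135887772-135887859, plus strand: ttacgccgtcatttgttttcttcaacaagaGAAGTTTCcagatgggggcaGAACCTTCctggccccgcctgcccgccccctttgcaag
The Hspa1a and Hspa1b stretches were identical, and 247 of the 250 upstream bases of this pair were the same. In both, the match began 104 bases before the start site. Hspb1 held 2 matches, which began 117 and 97 bases before its start. Over all 32851 windows of this length, 6.694% held GAANNTTC, 7.166% held TTCNNGAA and 12.840% held at least 1 of them. Of the 11 member windows, 6 held a match, and these belonged to 5 of the 7 members (Hspa1a, Hspa1b, Hspb1, Dnaja1 and, with TTCNNGAA, Hsph1). Bag3 and Dnajb1 had no match in these windows. The longer array GAANNTTCNNGAA was found in 0.466% of all windows and in 0 member windows. A match of letters is a description and does not show that HSF1 binds there.

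The libraries held 17998905 to 36692484 estimated counts in the low-glucose and 14815285 to 23129541 in the high-glucose group, or 43002302 to 60098862 and 37944826 to 42451809 once technical replicates were summed. Counting error in these sums was therefore small for all 10 genes, the lowest of which, Hspb1, held at least 108 counts in every biological replicate. Single libraries held fewer counts, so counting error weighs more in comparisons between them, above all for Hspb1. The levels below are CPM (counts relative to library size, scaled by TMM), and differences are log2 fold changes of 25 mM over 5 mM from the quasi-likelihood test of edgeR. The false discovery rate (FDR) is the Benjamini-Hochberg adjusted p over all 21061 genes. The summed level of 8 rod markers was 2714 to 5166 CPM at 5 mM and 5893 to 8094 CPM at 25 mM glucose, and transcripts of all 10 marker lists (rods, cones, bipolar, amacrine and ganglion cells, Müller glia, astrocytes, vascular cells, microglia and pigment epithelium) were detected. The tissue label was thus matched by its photoreceptor markers.

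None of the heat shock response genes passed the test between glucose concentrations. With edgeR, 0 of 10 had an FDR under 0.05, against 1.98% of all genes tested, and 0 of 10 had an FDR under 0.01 with a fold change over 2, against 0 of all genes tested. Without adjustment, 1 of 10 (Bag3, lower at 25 mM) had a p under 0.05, against 28.7% of all genes in either direction and 15.5% in this direction. The same tally of calls was 0 with limma-voom and with the newer quasi-likelihood method of edgeR, and 1 (Bag3) with DESeq2, which called 16.6% of all genes. The newer quasi-likelihood method called 2.83% of all genes and limma-voom 1.98%. Of the 10 differences, 2 were above 0 and 8 below 0, with a median of -0.20 on the log2 scale. The median was -0.027 without 25 mM replicate 1, -0.42 without 25 mM replicate 3 and -0.033 without the batch 1 library of 25 mM replicate 2. Over all genes tested, 10386 were above and 10675 below 0, with a median of -0.01. In 1 of 10 members (Bag3, lower), the 3 replicates of each group did not overlap, a pattern found in 31.8% of all genes and, with the same direction, in 15.8%.

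**Figure D1:**
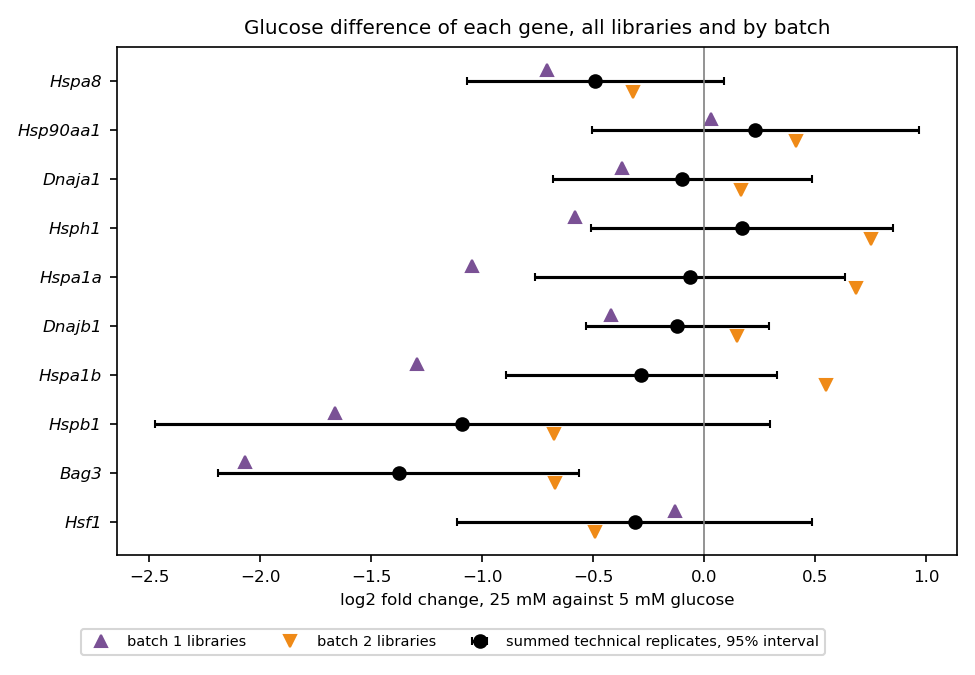
Log2 fold change of each gene at 25 mM against 5 mM glucose (x axis), with genes on the y axis ordered by level. Black points are the summed technical replicates (3 biological replicates per group) with the 95% interval of the edgeR fit, purple triangles the batch 1 libraries alone and orange triangles the batch 2 libraries alone. The interval of Bag3, -2.19 to -0.56, is the only one of the 10 that does not reach 0, and the triangles of 5 genes (Dnaja1, Hsph1, Hspa1a, Dnajb1 and Hspa1b) lie on opposite sides of 0.

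Divided by the merged exon length of all annotated forms, the levels of these genes spanned a wide range. This length exceeds that of a single form where a gene has many. It was 7099 bases for Hsf1 and 8629 for Dnaja1. Hsf1-214 and Dnaja1-201, the forms of these genes with most counts, have 1965 and 3376 bases. The order below therefore depends in part on annotation. Hspa8 had a mean of 679 CPM per kilobase over the 6 biological replicates and Hsp90aa1 of 604. A lower set followed, with Dnaja1 at 44.0, Hsph1 at 40.8, Hspa1a at 36.3, Dnajb1 at 23.3 and Hspa1b at 20.99 CPM per kilobase. Hspb1 (8.77), Bag3 (7.51) and the regulator Hsf1 (3.33) were the lowest. In CPM without this division the same genes were lowest, but with Hspb1 at the bottom in both groups. Of the 9 steps between neighbours in this order, 2 were larger than the SD of either gene at both concentrations, the step from Hsp90aa1 to Dnaja1 and that from Hspa1b to Hspb1. The order of Hspa8 and Hsp90aa1 was not the same in both groups, with means of 793 ± 87.8 and 557 ± 206 (SD, n = 3) CPM per kilobase at 5 mM and of 565 ± 150.3 and 652 ± 179.8 (SD, n = 3) at 25 mM glucose.

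Hsf1 (ENSMUSG00000022556, chr15:76477422-76501913 of GRCm38, plus strand) encodes the transcription factor of the response, whose activity is controlled mostly on the protein. Its level was 14.0, 35.7 and 29.0 CPM in the 3 replicates at 5 mM and 22.3, 15.7 and 25.3 CPM at 25 mM glucose. The groups overlapped, and the lowest value of all was that of 5 mM replicate 1. The difference was -0.31 on the log2 scale (standard error 0.35, 95% interval -1.11 to 0.49, FDR 0.566 by edgeR).

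Among the HSP70 genes, Hspa8 (ENSMUSG00000015656, chr9:40800984-40810087, plus strand) encodes the constitutive chaperone HSC70, which is present in unstressed cells. Its level was 3066, 3354 and 3815 CPM at 5 mM and 1852, 2306 and 3127 CPM at 25 mM glucose. Of the 3 high-glucose replicates, 2 lay below every low-glucose replicate and 1 lay among them. The means were 3412 ± 378 and 2428 ± 647 CPM (SD, n = 3), a log2 difference of -0.49 (standard error 0.25, 95% interval -1.07 to 0.09) with an FDR of 0.234 by edgeR. The 3 small nucleolar RNA genes Snord14c, Snord14d and Snord14e lie within Hspa8 on the same strand. Of the 101-base windows of Hspa8 transcripts, 28.1% also occur in transcripts of 7 other genes, so part of its count depends on how reads were divided.

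Hspa1a (ENSMUSG00000091971, chr17:34969190-34972156, minus strand) and Hspa1b (ENSMUSG00000090877, chr17:34956436-34959238, minus strand) encode the stress-inducible HSP70 and are the textbook targets of HSF1. Their coding sequences of 1923 and 1926 bases shared 1915 identical aligned bases, an identity of 99.4%. Of their 101-base windows, 48.4% and 49.7% also occur in transcripts of other genes (each other and Hspa1l), so that a split between the 2 genes is uncertain while their sum is less so. Hspa1a also overlaps an exon of Gm20481 on the opposite strand.

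Hspa1a stood at 89.2, 121 and 121 CPM at 5 mM and at 60.4, 109.8 and 146 CPM at 25 mM glucose. The high-glucose replicates held both the lowest and the highest value, so the groups overlapped. Its difference was -0.07 on the log2 scale (standard error 0.30, 95% interval -0.76 to 0.63, FDR 0.904 by edgeR). For Hspa1b the levels were 68.7, 64.9 and 60.2 CPM at 5 mM and 32.3, 57.9 and 69.0 CPM at 25 mM glucose, again with the extremes at 25 mM. Its difference was -0.28 (standard error 0.27, 95% interval -0.89 to 0.33, FDR 0.495). With the counts of both genes fitted as 1 gene, the levels were 158, 186 and 181 CPM against 92.8, 168 and 215 CPM, and the log2 difference was -0.14 (standard error 0.28, 95% interval -0.79 to 0.51, FDR 0.760 by edgeR). Without 25 mM replicate 1 the difference of the pair was 0.14, and without the batch 1 library of 25 mM replicate 2, left out after its low values were seen, it was 0.12. A p above the threshold does not show that the levels were the same.

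Of the genes for J-domain proteins, Dnajb1 (ENSMUSG00000005483, chr8:83608193-83612653, plus strand) encodes the HSP40 that works with inducible HSP70 and also turns HSF1 off. It was the steadiest member, at 68.3, 83.2 and 82.2 CPM in the 5 mM replicates and 63.7, 65.8 and 85.2 CPM in the 25 mM replicates. The high-glucose values of 63.7 and 65.8 CPM lay below every low-glucose replicate and that of 85.2 CPM above them all. The difference was -0.12 (standard error 0.18, 95% interval -0.53 to 0.29, FDR 0.673 by edgeR). Dnaja1 (ENSMUSG00000028410, chr4:40722150-40737149, plus strand), a farnesylated HSP40, stood at 519, 298 and 363 CPM at 5 mM and at 294, 449 and 358 CPM at 25 mM glucose. Its highest value was that of 5 mM replicate 1 and its next highest that of 25 mM replicate 2, so the spread within each group exceeded the difference of -0.10 between them (standard error 0.25, FDR 0.815). Without 5 mM replicate 1 the difference of Dnaja1 was 0.15, and without 25 mM replicate 1 it was 0.047. Exons of Smu1 and Gm6297 overlap those of Dnaja1 on the opposite strand and Mir207 lies on its own strand. Reads of such neighbours may be included, as no source says that counting was done by strand.

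Hsph1 (ENSMUSG00000029657, chr5:149614287-149636376, minus strand) encodes HSP105, an HSP110 chaperone that exchanges nucleotides on HSP70. Its 3 values at 5 mM, 275, 275 and 287 CPM, were close together, whereas those at 25 mM glucose, 172, 365 and 405 CPM, lay on both sides of them. The SD was 6.88 CPM in the first group and 125 CPM in the other. The log2 difference was 0.17 (standard error 0.30, 95% interval -0.51 to 0.85, FDR 0.724 by edgeR), and without 25 mM replicate 3 it was -0.059.

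Bag3 (ENSMUSG00000030847, chr7:128523616-128546981, plus strand) encodes a cochaperone that releases nucleotide from HSP70 and, together with small heat shock proteins, directs clients to selective autophagy. Its level was 17.0, 35.7 and 30.6 CPM at 5 mM and 7.30, 9.88 and 14.9 CPM at 25 mM glucose. Every high-glucose replicate lay below every low-glucose replicate, but the gap between 14.9 and 17.0 CPM was small beside the SDs of 9.65 and 3.86 CPM (n = 3). The difference of -1.38 on the log2 scale (standard error 0.35, 95% interval -2.19 to -0.56) had an unadjusted p of 0.00438 and an FDR of 0.0707 by edgeR, so Bag3 did not pass the threshold. The adjusted p was 0.0820 with limma-voom, 0.0659 with the newer quasi-likelihood method and 0.00462 with DESeq2. Without 5 mM replicate 1, the FDR of Bag3 by edgeR was 0.0132, in a fit that called 26.6% of all genes. Without each of the other 5 replicates it lay between 0.0529 and 0.227, and 4 of these 5 fits called 0 genes in all. Without the batch 2 library of 5 mM replicate 1 alone it was 0.0402, where 8.27% of all genes were called. In bulk tissue, fewer cells of a type that expresses Bag3 and less Bag3 RNA per cell cannot be told apart.

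Markers of some other cell types were also lower at 25 mM glucose. The summed level of 7 vascular markers was 915 to 1591 CPM at 5 mM and 505 to 844 CPM at 25 mM glucose, and that of 7 Müller glia markers was 2795 to 4004 CPM and 1747 to 2707 CPM. The difference in the Müller glia sum was carried mostly by Vim, named after its values were seen. Vim had means of 1892 ± 544 and 663 ± 235 CPM (SD, n = 3), while Aqp4 (log2 difference 0.76) and Slc1a3 (0.35) were above 0. Sums of the 6 bipolar markers, 1237 to 1376 CPM and 1028 to 1233 CPM, and of the 6 amacrine markers, 391 to 462 CPM and 252 to 377 CPM, were lower at 25 mM as well. None of these 4 lists had overlapping groups, whereas the 8 microglia markers, at 92.7 to 212 CPM and 52.2 to 115 CPM, and the 4 astrocyte markers, at 310.1 to 525 CPM and 335 to 347 CPM, overlapped. Among single genes tested, groups did not overlap in 31.8%, with 15.8% lower at 25 mM. In the vascular list the largest differences in CPM were those of Pecam1 (means 436 and 114 CPM) and Cdh5 (294 and 64.6 CPM). Kdr (log2 difference -0.03) and Rgs5 (0.09) stayed near 0. Of the markers of glia and vessels, 6 of 7 vascular, 5 of 7 Müller glia, 8 of 8 microglia and 4 of 4 astrocyte genes had a log2 difference below 0. No marker of these lists was at 0 throughout. Their part in the lower Bag3 level was not tested.

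Hsp90aa1 (ENSMUSG00000021270, chr12:110690605-110702728, minus strand) encodes the inducible cytosolic HSP90α. It stood at 3121, 1735 and 1708.5 CPM in the 5 mM replicates and at 1834, 3245 and 2612 CPM in the 25 mM replicates. As with Dnaja1, 5 mM replicate 1 was far above the other low-glucose replicates and 25 mM replicate 2 was the highest of the high-glucose ones. The difference was 0.23 on the log2 scale (standard error 0.32, 95% interval -0.51 to 0.97, FDR 0.658 by edgeR). Of its 101-base windows, 37.8% also occur in transcripts of 3 other genes (Gm12346, Gm5844 and Gm5511).

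Hspb1 (ENSMUSG00000004951, chr5:135887919-135889563, plus strand) encodes HSP25, a small heat shock protein that binds unfolded proteins and actin. It was low, at 4.41, 18.8 and 13.7 CPM at 5 mM and at 2.50, 5.06 and 9.74 CPM at 25 mM glucose. The groups overlapped because 5 mM replicate 1 lay below 2 of the high-glucose replicates. The difference of -1.09 was the largest after that of Bag3, with the widest interval of the members, -2.48 to 0.30 (standard error 0.60, FDR 0.264 by edgeR). Of its 101-base windows, 43.9% also occur in transcripts of Hsp25-ps1.

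**Figure D2:**
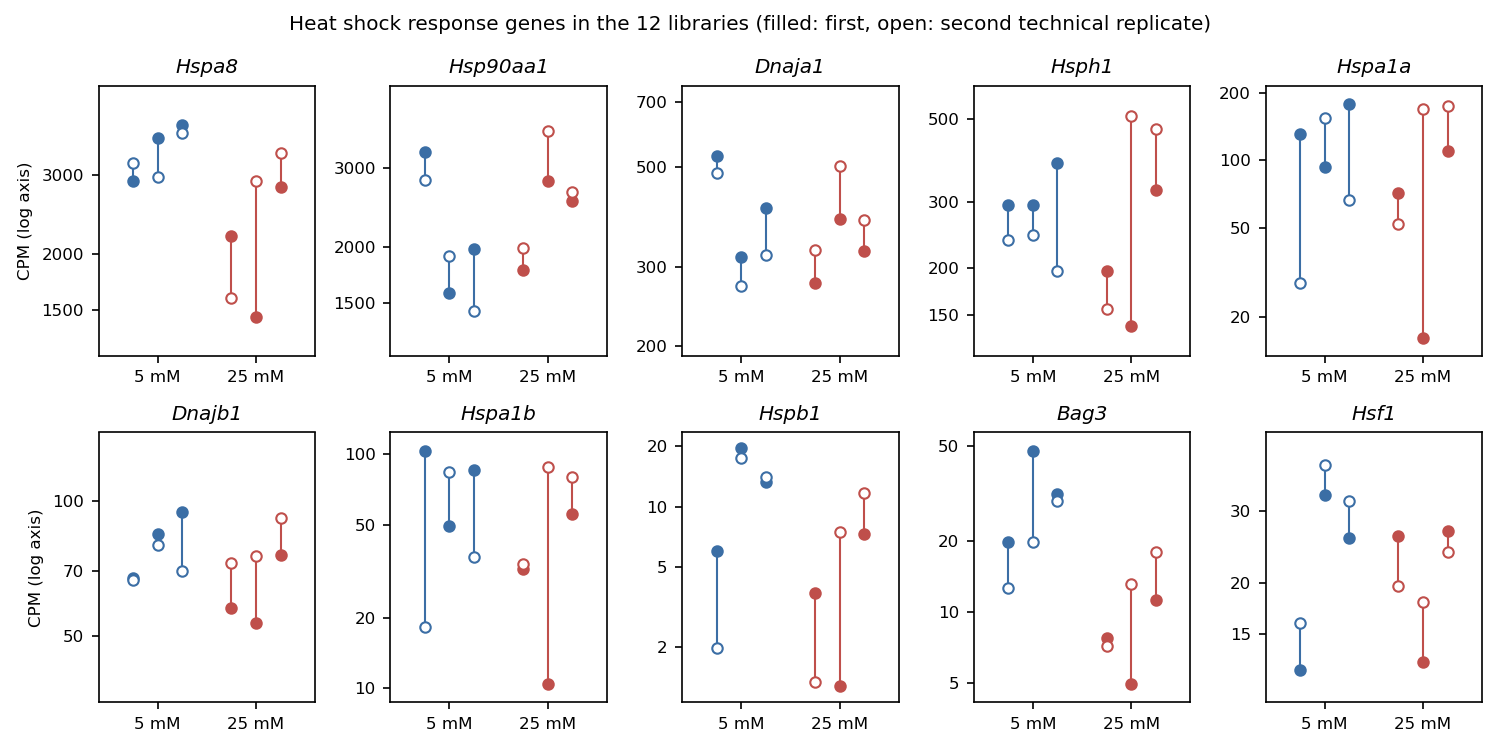
Level of each gene in the 12 libraries (y axis, CPM on a log scale) at 5 mM (blue) and 25 mM (red) glucose. A line joins the technical replicates of a biological replicate, with replicates 1 to 3 from left to right. Filled points are technical replicate 1 (batch 1) and open points technical replicate 2 (batch 2). The longest line in the Hspa1a panel joins 16.2 and 169 CPM in 25 mM replicate 2, whereas Dnajb1 stayed between 53.7 and 94.6 CPM.

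The members differed widely in how well technical replicates matched. Hspa1a ranged from 28.6 to 179 CPM over the 6 low-glucose libraries (median 112) and from 16.2 to 175 CPM over the 6 high-glucose libraries (median 90.7). Hspa1b ranged from 18.3 to 103 CPM (median 66.8) and from 10.5 to 88.2 CPM (median 44.7). The ranges of the 2 groups nearly coincided in both genes, and most of the spread lay within biological replicates. In 25 mM replicate 2, Hspa1a was 10.5 times and Hspa1b 8.43 times as high in the batch 2 library as in the batch 1 library, whereas in 5 mM replicate 1 the batch 2 library was the lower, at 28.6 against 131 CPM for Hspa1a and 18.3 against 103 CPM for Hspa1b.

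The pair moved together. The summed level of Hspa1a and Hspa1b ranged from 26.6 to 264 CPM over the 12 libraries, a 9.92-fold range, while the ratio of Hspa1a to Hspa1b stayed between 1.26 and 2.21 with a median of 1.86. Since about the same share of each gene's sequence occurs in the other, this ratio depends in part on how reads were divided.

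**Figure D3:**
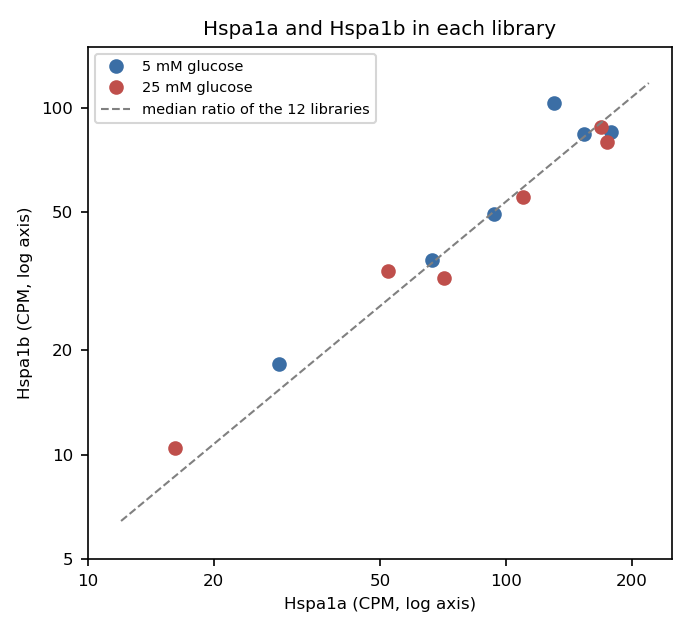
Hspa1a (x axis) and Hspa1b (y axis) in each of the 12 libraries, both in CPM on log axes, at 5 mM (blue) and 25 mM (red) glucose. The dashed line marks the median ratio of 1.86. Libraries of both concentrations lie along the whole line, from 16.2 and 10.5 CPM to 175 and 79.8 CPM at 25 mM.

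Other members also differed within 25 mM replicate 2. The batch 2 library was 5.90 times as high as the batch 1 library for Hspb1, 3.67 times for Hsph1, 2.65 times for Bag3 and 2.01 times for Hspa8. The Hspb1 ratio rests on few reads, with 7.54 CPM in batch 2 and 1.28 CPM in the batch 1 library of 14815285 counts. Differences in that replicate were smaller for Dnajb1 (1.41 times), Hsf1 (1.40), Dnaja1 (1.31) and Hsp90aa1 (1.30). All 10 members were higher in its batch 2 library, with a median log2 ratio of 1.198, against 47.3% of all genes. The batch 2 library was higher for 9 of 10 members in 25 mM replicate 3 (median log2 ratio 0.40) and lower for 8 of 10 in 5 mM replicate 1 (median -0.26) and in 5 mM replicate 3 (median -0.39). The other 2 biological replicates were mixed, with 4 of 10 members higher in batch 2 in each. Which of a pair of libraries shows the state of the culture cannot be told from these values, and the cause of the gap was not tested.

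**Figure D4:**
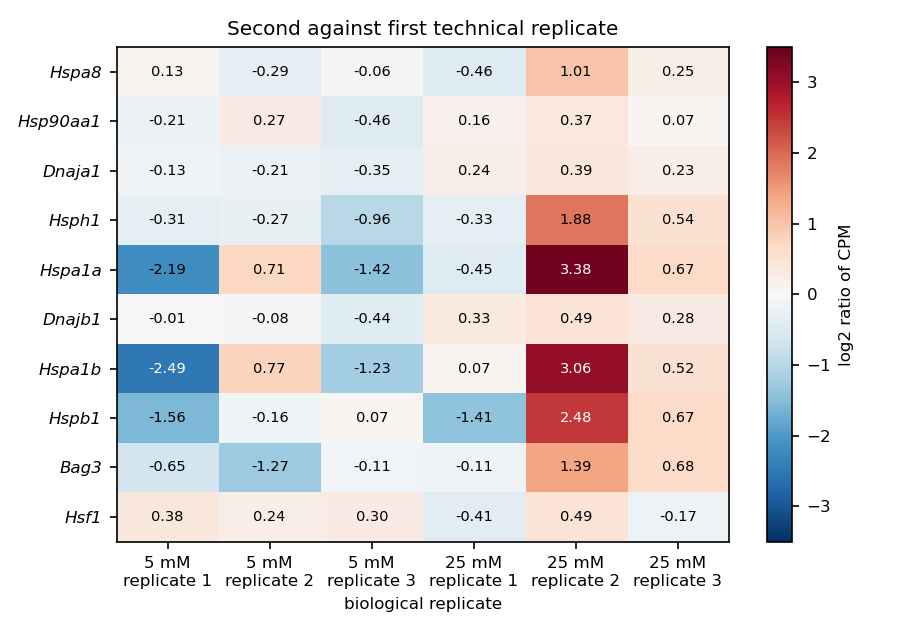
Log2 ratio of technical replicate 2 to technical replicate 1 for each gene (rows) in each biological replicate (columns), with red for a higher and blue for a lower value in technical replicate 2. The column of 25 mM replicate 2 is red for all 10 genes, up to 3.38 for Hspa1a, and the lowest value, -2.49, is that of Hspa1b in 5 mM replicate 1.

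Set against the rest of the transcriptome, this spread was unequal among members. The SD between technical replicates on the log2 scale, pooled over 6 pairs, was 1.27 for Hspa1a, 1.22 for Hspa1b and 0.96 for Hspb1, with a median of 0.39 over 18725 genes. Of the genes within 1 log2 unit of the same level, 99.5%, 99.3% and 94.5% had a smaller SD than these 3 genes. Hsph1 followed with an SD of 0.65 (above 95.05% of genes of similar level) and Bag3 with 0.61 (84.5%). The other 5 members were below the median of all genes, with 0.34 for Hspa8, 0.25 for Hsf1, 0.23 for Dnajb1, 0.20 for Hsp90aa1 and 0.19 for Dnaja1. The SD between biological replicates within a group was taken over means of 2 libraries, which lessens the technical part in it. It is therefore not on the same footing as the SD between single technical replicates, and their order does not rank the 2 sources. As computed, the biological SD was the smaller for Hspa1a (0.65), Hspa1b (0.48), Hsph1 (0.41), Bag3 (0.52), Hspa8 (0.29) and Dnajb1 (0.19). The same held for the median of all genes (0.33 against 0.39). The biological SD was the larger for Dnaja1 (0.34), Hsp90aa1 (0.43), Hsf1 (0.57) and Hspb1 (1.16).

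Because the technical replicates form batches, the glucose comparison was repeated within each batch, with 3 libraries per group. In batch 1, 9 of 10 members were lower at 25 mM, with a median log2 difference of -0.65, and in batch 2, 6 of 10 were higher, with a median of 0.16. Over all genes the medians were 0.01 and -0.03. The sign therefore depended on the batch for Hspa1a (-1.05 and 0.68), Hspa1b (-1.30 and 0.55), Hsph1 (-0.58 and 0.75), Dnajb1 (-0.42 and 0.15) and Dnaja1 (-0.37 and 0.16). Both batches gave a lower level at 25 mM for Bag3 (-2.07 and -0.67), Hspb1 (-1.67 and -0.68), Hspa8 (-0.71 and -0.32) and Hsf1 (-0.13 and -0.49), and a higher level for Hsp90aa1 (0.03 and 0.41). Bag3 was the 1 member with an FDR under 0.05 in batch 1 (0.0152, edgeR), where 17.3% of all genes passed, and its FDR in batch 2 was 0.508, where 0 genes passed.

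The difference between batches was tested as an interaction over the 12 libraries, with the biological replicate as a block. It was above 0 in 9 of 10 members, meaning a higher ratio of 25 mM to 5 mM in batch 2, and was largest for Hspa1b (2.15, standard error 1.04) and Hspa1a (2.11, standard error 1.12). With edgeR, 0 of 10 had an FDR under 0.05 (range 0.243 to 0.689), as did 0 of all 18725 genes. Without adjustment, 3 of 10 (Bag3, Dnaja1 and Dnajb1) had a p under 0.05, against 16.3% of all genes. The interaction of Bag3 was 1.33 (standard error 0.46, FDR 0.243). The vascular marker list had a median log2 difference of -2.99 in batch 1 and -0.81 in batch 2, and its part in the batch difference of Bag3 was not tested.

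For Hsf1, Hsp90aa1 and Dnaja1, a pair of biological replicates stood apart in both of their libraries. Both libraries of 5 mM replicate 1 held more Hsp90aa1 (3255 and 2823 CPM) than the other 4 low-glucose libraries (1437.6 to 1983 CPM), and both libraries of 25 mM replicate 2 (2801 and 3629.7 CPM) held more than the other 4 high-glucose libraries. Dnaja1 was likewise at 529.5 and 485 CPM in 5 mM replicate 1, above the other low-glucose libraries (272 to 406 CPM), and at 384 and 503.9 CPM in 25 mM replicate 2, above the other high-glucose libraries (277 to 382 CPM). The lower of the last pair, 384 CPM, was only just above 382 CPM. Hsf1 showed the opposite order, with 12.2 and 16.0 CPM in 5 mM replicate 1 and 12.8 and 17.9 CPM in 25 mM replicate 2, below every other library of their group. Hsp90aa1 and Dnaja1 were thus high in the replicates in which Hsf1 was low, at both glucose concentrations. These replicates also resembled each other over all genes tested, with a correlation of 0.51 between their deviations from the group means. This was the highest value of any pair of a 5 mM and a 25 mM replicate, the lowest being -0.45. Deviations within a group sum to 0, so some pairs must have positive values. Each held the lowest rod marker sum of its group (2714 CPM at 5 mM and 5893 CPM at 25 mM glucose). Whether the order of Hsf1, Hsp90aa1 and Dnaja1 goes beyond this general likeness was not tested.

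The transcript table divides the counts of a gene among its annotated forms, of which the members have between 1 and 16. Hspa1a, Hspa1b and Bag3 have a single form each. For Hsf1, 9 of 16 forms are not annotated as protein coding, and they took 39.1, 39.0 and 44.0% of its transcript counts at 5 mM and 47.4, 47.1 and 46.5% at 25 mM glucose. For Dnaja1, 5 of 10 forms are of this kind, with 29.2, 32.0 and 32.5% at 5 mM and 36.2, 34.5 and 33.1% at 25 mM glucose. In both genes every high-glucose share was above every low-glucose share, which is the case in 25.5% of 9640 genes with at least 100 counts (1.64% in the opposite direction). The means of Hsf1 were 40.7 ± 2.88 and 47.0 ± 0.465% (SD, n = 3) and those of Dnaja1 31.2 ± 1.81 and 34.6 ± 1.54%, each with p = 0.1 in a two-sided exact permutation test, the smallest p that 3 against 3 allows. For Hsph1 (p = 0.3), Hspa8 (p = 0.5) and Hsp90aa1 (p = 0.8) the shares overlapped (exact permutation tests). The shares rest on the authors' division of reads among overlapping forms.

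The same biological replicates held the lowest or highest shares of some coding forms, in sums over both libraries. The form Dnajb1-201 took 13.2, 35.6 and 28.8% of Dnajb1 counts at 5 mM and 33.9, 10.7 and 20.8% at 25 mM glucose, lowest in 5 mM replicate 1 and 25 mM replicate 2. Hsp90aa1-202 took 5.43, 21.3 and 16.4% and 12.3, 5.24 and 11.2% of Hsp90aa1 counts, lowest in the same replicates. Hspa8-202 took 63.7, 46.8 and 44.8% at 5 mM and 40.7, 63.3 and 60.1% at 25 mM glucose, highest in these replicates. In 6 members with 2 major forms, the log2 ratio of these forms differed between concentrations by -0.26 (Hsph1) to 0.54 (Hsp90aa1), with p from 0.2 to 0.9 in exact permutation tests. The batches gave -0.14 and 0.76 for Dnajb1 and 0.077 and 1.05 for Hsp90aa1.

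Related chaperones were read from 10 lists with 93 genes, of which 91 were tested (Hspb7 and Hspb9 were not). No gene of the 91 passed an FDR of 0.05 with edgeR (count 0), while an unadjusted p below 0.05 was found for 1 gene that was higher and 24 that were lower, against 15.5% of all genes lower and 28.7% in either direction. The differences were above 0 in 19 and below 0 in 72 genes, with a median of -0.29, against -0.01 over all genes. Since these genes are expressed together in many cell types, they are not independent of each other.

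Relatives and partners of the members in the cytosol lay on both sides of 0. In the list of the HSF family and its regulators the median was -0.18, with differences from -0.97 for Hsf5 to 0.41 for Hsf3. Both of these genes were near the floor, with means at 5 mM and 25 mM glucose of 0.94 and 0.48 CPM for Hsf5 and 0.29 and 0.39 CPM for Hsf3. Other HSP70 and HSP110 genes were split, 4 above and 4 below 0, from -1.18 for Hspa12b, an HSP70 relative of endothelial cells, to 0.59 for Hspa4l, an HSP110. J-domain genes outside the members were split as well, 5 above and 6 below 0, from -0.72 for Dnajb5 to 0.32 for Dnajb4. The list of HSP90 and its cochaperones had a median of -0.41, with 10 of 13 below 0, from -0.91 for Stub1, a ubiquitin ligase that works with HSP70, to 0.17 for Unc45a, a myosin chaperone. Hsp90ab1, the constitutive paralogue of Hsp90aa1 and named here after its values were seen, had means of 1457 ± 69.5 and 796 ± 234 CPM (SD, n = 3), a log2 difference of -0.87 with an FDR of 0.0829 (edgeR).

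Nucleotide exchange and BAG genes other than Bag3 and Hsph1 lay between -0.65 for Bag6 and 0.22 for Bag4, with 5 of 6 below 0. Of the small heat shock protein genes other than Hspb1, 4 of 6 were below 0, from -1.37 for Hspb8, the partner of BAG3 in selective autophagy, to 0.20 for Hspb11. The 4 include Hspb2 and Hspb3, which were near the floor, at 0.46 and 0.38 CPM at 5 mM and 0.25 and 0.21 CPM at 25 mM glucose. Hspb8 stood at 37.2 ± 13.8 CPM at 5 mM and 14.4 ± 6.997 CPM at 25 mM glucose (SD, n = 3), with an FDR of 0.0870 (edgeR). Its log2 difference was -2.12 in batch 1 and -0.64 in batch 2, beside -2.07 and -0.67 for Bag3. A larger drop in batch 1 was not particular to this pair. List medians in batches 1 and 2 were -0.87 and -0.34 for the endoplasmic reticulum chaperones and -2.99 and -0.81 for the vascular markers. For the small heat shock protein list they were -0.13 and -0.26.

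The cytosolic chaperonin and the chaperones of other compartments were mostly below 0. For the TRiC chaperonin, which folds actin and tubulin, 8 of 8 subunit genes were below 0, from -0.50 for Cct7 to -0.03 for Cct4. Mitochondrial chaperone genes were below 0 in 8 of 9, from -0.59 for the protease Lonp1 to 0.36 for Grpel2. In the endoplasmic reticulum list, 15 of 15 were below 0 with a median of -0.57, and 9 of 15 had an unadjusted p under 0.05 (15.5% of all genes in this direction). The values ran from -1.94 for the collagen chaperone Serpinh1 (FDR 0.0540, edgeR), the lowest FDR of the 10 lists, to -0.15 for Hspa5, the HSP70 of this compartment. The ubiquitin and proteasome list had a median of -0.60, with 9 of 10 below 0 and the highest value, 0.02, in the proteasome gene Psmd14. No test compared these lists with the members.

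**Figure D5:**
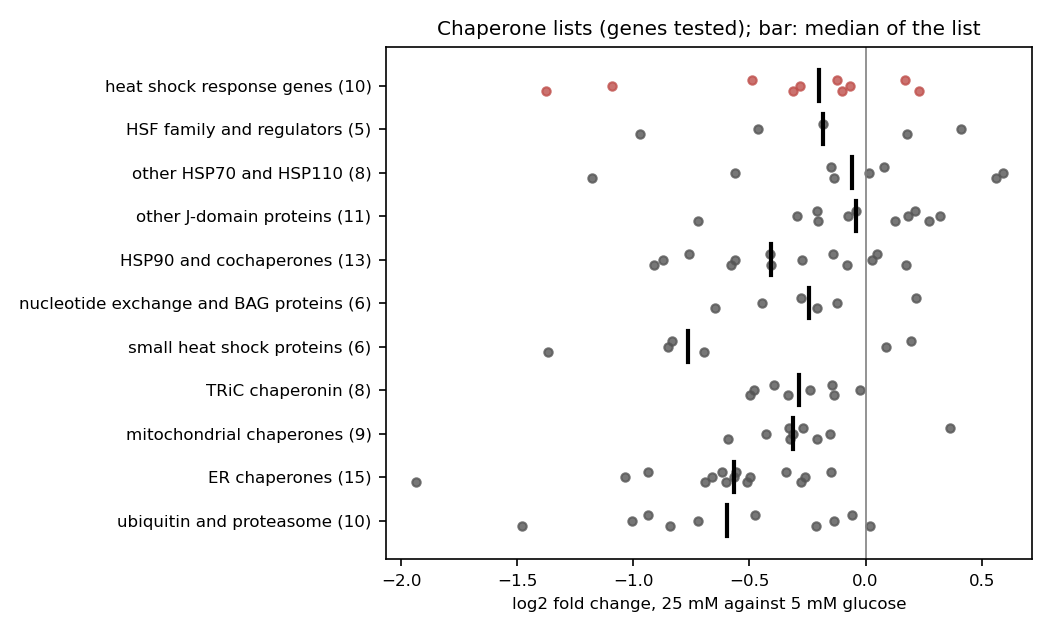
Log2 fold change at 25 mM against 5 mM glucose (x axis) of the heat shock response genes (red) and of the genes of 10 other chaperone lists (grey), with the number of genes tested in brackets. The black bar is the median of a list. The medians run from -0.77 for small heat shock proteins to -0.04 for other J-domain proteins, with -0.20 for the heat shock response genes. The small heat shock protein median includes Hspb2 and Hspb3, which were near the floor (means of 0.46 and 0.38 CPM at 5 mM glucose).

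The genes whose levels followed the members most closely over the 12 libraries were sought among 10487 genes with a mean of at least 10 CPM outside the lists. Closest to the mean standardised level of the 9 members other than Hsf1 were Errfi1 (Pearson's r 0.967), an inhibitor of the EGF receptor, Fermt2 (0.961), an integrin-binding protein, the cytokine gene Il6 (0.954), the adhesion gene Ceacam1 (0.953) and Odc1 (0.952), the rate-limiting enzyme of polyamine synthesis. Il6 ranged from 58.1 to 472 CPM at 5 mM and from 13.2 to 392 CPM at 25 mM glucose. Closest to the sum of Hspa1a and Hspa1b were Creb5 (0.939), Cldn1 (0.928), Bmp2k (0.919), Cxcl10 (0.911) and Fosl1 (0.909), of which Creb5 and Fosl1 encode leucine zipper transcription factors, Cldn1 a tight junction protein, Bmp2k a kinase and Cxcl10 a chemokine. None of these 10 genes had an FDR under 0.05 between glucose concentrations (range 0.250 to 0.993, edgeR). The 12 libraries include pairs from the same biological replicate and share depth and composition effects, so these values describe the libraries and were given no p.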

How the data were processed

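RNA was measured in 12 libraries of explanted mouse retina. Per the labels, libraries came from the low-input (Pico, v2) SMARTer kit for stranded total RNA, and read pairs of 101 bases were obtained. The authors deposited expected counts (estimated counts that need not be whole) per gene and per transcript, with technical replicates kept apart. The submitters' processing notes name GRCm38; the counting tool is not given in the sources used here.

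Technical replicates were summed and rounded to whole numbers. Counts were scaled by TMM, filtered with filterByExpr and tested with the quasi-likelihood test of edgeR 4.0.16 (version 3 method) in R 4.3.3, without a replicate block. The design named a test on counts, and it was kept for these expected counts after rounding. Standard errors are the log2 fold change over the square root of F. Library totals bound counting error only, since amplified reads without molecular identifiers are not independent molecules. Nothing in the labels says that biological replicates were separate cultures or animals, so p-values measure the spread between these samples. Symbols, positions and forms came from GENCODE M21, which matched 48766 genes (90.8%). Log2 CPM used a prior count of 2 and form ratios a pseudocount of 0.5. The members and lists were chosen with earlier results of these data known. The genes named were all members, in each other chaperone list the highest and lowest log2 fold change and any gene with an FDR under 0.05, and the 5 genes most alike by each measure. The result of 1 gene that this rule names is not reported here. The procedure was tested on simulated data. Alternatives covered other size factors, filters and tools (DESeq2 1.42.0, limma 3.58.1), batches, transcript counts summed per gene, a block and samples left out, and 1 (without the batch 1 library of 25 mM replicate 2) was added after seeing the data. Python 3.11.15, pandas 2.3.3, scipy 1.17.1, Biopython 1.88 and matplotlib 3.10.9 made the tables, alignments and plots. All columns of samples were used (0 left out), and Dixon's test marked 0 of 20 groups of 6 libraries (each gene at each concentration).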

Additional observations from a re-analysis of the deposited data

How the results depend on the processing

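Of 265 values computed under alternatives, 236 kept their direction and their side of the threshold. The number of members with an FDR under 0.05 was 0 in the reported fit and 1 with no filter on low counts (5.63% of all genes called), with DESeq2 (16.6%), with the replicate block (4.70%), in batch 1 alone (17.3%) and without the batch 2 library of 5 mM replicate 1 (8.27%), and 0 to 1 with each replicate left out (1 without 5 mM replicate 1, where 26.6% of all genes were called); where it was 1 the member was Bag3. Under the replicate block its log2 difference was -1.37 (FDR 0.0406). Deviations of same-numbered replicates from their group means had correlations of -0.01, -0.45 and 0.28. The highest value of any pair across the groups was 0.51, for 5 mM replicate 1 with 25 mM replicate 2. With 3 replicates per group, these values cannot show whether the numbers pair samples. The block called 990 against 417 of all genes. Bag3 stayed below 0 under all 19 alternatives (-2.07 to -0.67, FDR 0.00462 to 0.508). The median of the members was -0.65 in batch 1 and 0.16 in batch 2. Batch 2 alone turned the sign of the Hspa1a and Hspa1b sum (0.64), Hspa1a (0.68), Hspa1b (0.55), Dnajb1 (0.15), Dnaja1 (0.16) and the Hsf1-214 to Hsf1-212 ratio (0.040), and batch 1 alone that of Hsph1 (-0.58) and the Dnajb1-202 to Dnajb1-201 ratio (-0.14). Without the batch 1 library of 25 mM replicate 2, an alternative added after seeing the data, the sum was 0.12 and Hspa1a 0.20, and the FDR of Bag3 was 0.153. With replicates left out in turn, the sum ran from -0.43 to 0.14, Hspa1a from -0.38 to 0.22, Dnaja1 from -0.27 to 0.15 and Hsph1 from -0.059 to 0.47. Of those that kept their sign, Hsf1 ran from -0.62 to -0.037, Hsp90aa1 from 0.036 to 0.57, Dnajb1 from -0.27 to -0.037, Hspa1b from -0.52 to -0.017, Hspa8 from -0.72 to -0.32, Hspb1 from -1.70 to -0.66 and the median of the members from -0.42 to -0.027. The positive ends of the sum and of Hspa1a came without 25 mM replicate 1, that of Dnaja1 without 5 mM replicate 1, and the negative end of Hsph1 without 25 mM replicate 3. The median of all genes moved by less than 0.1 under every setting. The cause of these shifts was not tested. The 95% intervals of 9 of 10 members included 0, and depth set only the counting error.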
